A study of Mus musculus with 8 samples.

Results

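ERK (extracellular signal-regulated kinase) feedback genes are genes that the RAS-ERK pathway switches on and whose proteins restrain it. The 10 genes described here were Dusp1, Dusp4, Dusp5 and Dusp6 (dual-specificity phosphatases), Spry1, Spry2 and Spry4 (Sprouty proteins), Spred1 and Spred2 (Sprouty-related proteins), and Etv5 (an ETS transcription factor). They were taken by symbol, by a rule that uses no measured value, although the 10 were chosen with earlier results of these data known. All 10 were found among the 32285 genes of the matrices. Each had at least 1 UMI (unique molecular identifier, 1 counted RNA molecule) in both libraries. Dusp1, which answers to stress, cAMP and glucocorticoids as well as to ERK, was set beside the other 9, called the ERK-specific genes below. That name is a short label and does not mean that each protein acts on ERK alone.

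The data are single-cell transcriptomes of cells freed by collagenase and dispase from the femurs and tibias of male C57BL/6J mice aged 16 weeks, fed normal diet chow (ND) or high fat diet chow (HFD). Mice on HFD served as a model of diet-induced metabolic disease, and both groups were of one strain with no transgene. The labels list 4 samples per diet, but the counts hold 1 pooled library per diet with no map from cells to mice. The diets were therefore compared as 1 library against 1, with no test and no replicate check, and intervals cover counting error only.

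ERK feedback works at several levels of the cascade. Growth factors bind receptor tyrosine kinases, which load RAS with GTP and drive the kinases RAF, MEK and ERK in turn. Sprouty and Spred proteins act upstream, at the receptor adaptors and at RAS or RAF. DUSP4, DUSP5 and DUSP6 remove phosphate from ERK, in the nucleus (DUSP4 and DUSP5) or in the cytoplasm (DUSP6). DUSP1 acts in the nucleus on p38 and JNK as well as on ERK. Because their transcripts are short-lived and follow ERK activity closely, Dusp6, Spry and Etv genes are often read as a record of it. In bone, FGF and PDGF signaling through ERK regulates the growth and differentiation of periosteal cells.

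The sequences just upstream of Dusp1, Dusp5, Dusp6 and Spry1 are printed because the diet ratios turned on these genes, and because Dusp1 differs from the others in the signals known to induce it. Each is the stretch from 250 to 51 bases before the RefSeq start on GRCm38.p6, read 5′ to 3′ on the strand of the gene. Capitals mark TGACG on either strand (the half-site of the cAMP response element, to which CREB proteins bind) and the CArG box (the serum response element core, to which SRF binds).
Dusp1, chr17:26508523-26508722, minus strand: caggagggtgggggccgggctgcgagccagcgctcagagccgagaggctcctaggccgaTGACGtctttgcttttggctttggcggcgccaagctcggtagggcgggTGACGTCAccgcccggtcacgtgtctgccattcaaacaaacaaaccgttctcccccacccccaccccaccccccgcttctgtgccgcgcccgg
Dusp5, chr19:53528895-53529094, plus strand: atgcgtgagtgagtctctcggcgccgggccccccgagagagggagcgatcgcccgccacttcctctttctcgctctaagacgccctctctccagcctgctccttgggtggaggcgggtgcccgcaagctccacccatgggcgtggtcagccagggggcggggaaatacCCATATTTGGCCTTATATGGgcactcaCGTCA
Dusp6, chr10:99262981-99263180, plus strand: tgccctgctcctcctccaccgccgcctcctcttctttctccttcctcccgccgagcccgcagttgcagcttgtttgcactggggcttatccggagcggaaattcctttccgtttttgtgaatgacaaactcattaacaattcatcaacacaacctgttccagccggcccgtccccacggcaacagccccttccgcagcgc
Spry1, chr3:37639697-37639896, plus strand: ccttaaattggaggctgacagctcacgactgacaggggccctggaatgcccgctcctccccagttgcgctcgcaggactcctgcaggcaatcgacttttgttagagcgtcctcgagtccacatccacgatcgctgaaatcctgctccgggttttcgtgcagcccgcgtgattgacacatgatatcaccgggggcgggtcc

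Of the 10 genes, 8 had such a window, and the same windows were available for 32851 starts in all. The full palindrome TGACGTCA was found in 1 of the 8, Dusp1, from 143 to 136 bases before its start, and in 0.828% of all windows. The half-site TGACG, which the palindrome contains on both strands, stood in the windows of Dusp1 and Dusp5 and in 12.7% of all windows. A CArG box was found in 1 of the 8, Dusp5, which held a pair of them side by side from 82 to 63 bases before its start, against 1.16% of all windows. The letters CCGGAAG (a core bound by ETS factors, 3.98% of all windows) and TGANTCA (the AP-1 site, 5.57%) occurred in 0 of the 8 windows, searched on both strands. These are matches of letters and say nothing of binding in these cells.

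Barcodes were kept when they showed over 500 and under 8000 genes and had less than 20% of their UMIs from mitochondrial genes, 6029 of 6314 barcodes in ND and 6224 of 6636 in HFD. The libraries held 48558889 and 49940976 UMIs, with medians of 4610 and 4823.5 UMIs per kept cell, and 15 barcodes occurred in both. Of 28 clusters, 26 took the name of 1 of 12 classes from marker genes, and classes are written with "-like" for that reason. Although the tissue was periosteum, the matrix-producing mesenchymal-like cells (Col1a1, Dcn and Pdgfra, with 8 of 8 markers detected) numbered 408 in ND and 669 in HFD, 6.77% and 10.7% of kept cells. Neutrophil-like cells made up 39.9% and 39.0% of kept cells, and B cell-like cells 25.1% and 23.7%. Clusters 19 (T cell-like), 20 (B cell-like) and 21 (macrophage/monocyte-like) stood apart. They held 109, 103 and 110 ND cells against 42, 48 and 34 HFD cells, and their levels of Hspa1a, an inducible heat-shock chaperone, were 5930, 13500 and 9470 UMIs per 1000000 in ND and 5030, 11100 and 9750 in HFD. Values without these clusters are given beside the main results that moved when they were left out.

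Dusp1 was lower in HFD than in ND in each of the 12 classes. The level of a gene was expressed as its UMIs per 1000000 UMIs of the class (UPM), and the diet ratio as log2 of HFD over ND with its 95% counting interval. In endothelial-like cells, where Dusp1 was highest in both libraries, its level was 1540 UPM in ND and 943 in HFD, a log2 ratio of -0.71 (-0.84 to -0.58). In mesenchymal-like cells it was 688 and 506 UPM, 26.5% lower in HFD, with a ratio of -0.44 (-0.51 to -0.38). The HFD library was thus the lower of the pair in the mesenchymal-like class as a whole and in the vessel lining alike.

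The blood lineages showed the same direction. Neutrophil-like cells held 492 UPM of Dusp1 in ND and 308 in HFD (log2 ratio -0.68, -0.73 to -0.63), and macrophage/monocyte-like cells 698 and 402 (-0.80, -0.86 to -0.73). B cell-like cells held 174 and 82.6 UPM (-1.08, -1.22 to -0.94), and 138 and 71.5 without cluster 20. In hematopoietic progenitor-like cells, marked by Mpo, Elane and Kit, the level was 106 UPM in ND and 33.6 in HFD, 3.14-fold lower and the widest ratio of the 12 classes. T cell-like cells stood at 307 and 197 UPM. NK cell-like cells had a narrower difference, 514 and 420 UPM (-0.29, -0.52 to -0.06).

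Among the classes with few cells, Dusp1 was at 598 and 325 UPM in pericyte-like cells, 390 and 227 in basophil/mast cell-like cells and 117 and 75.3 in erythroid-like cells. In dendritic cell-like cells it was at 173 and 127 UPM, and this was the 1 class of 12 whose counting interval reached past 0 (log2 ratio -0.44, -0.91 to 0.03).

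**Figure D1:**
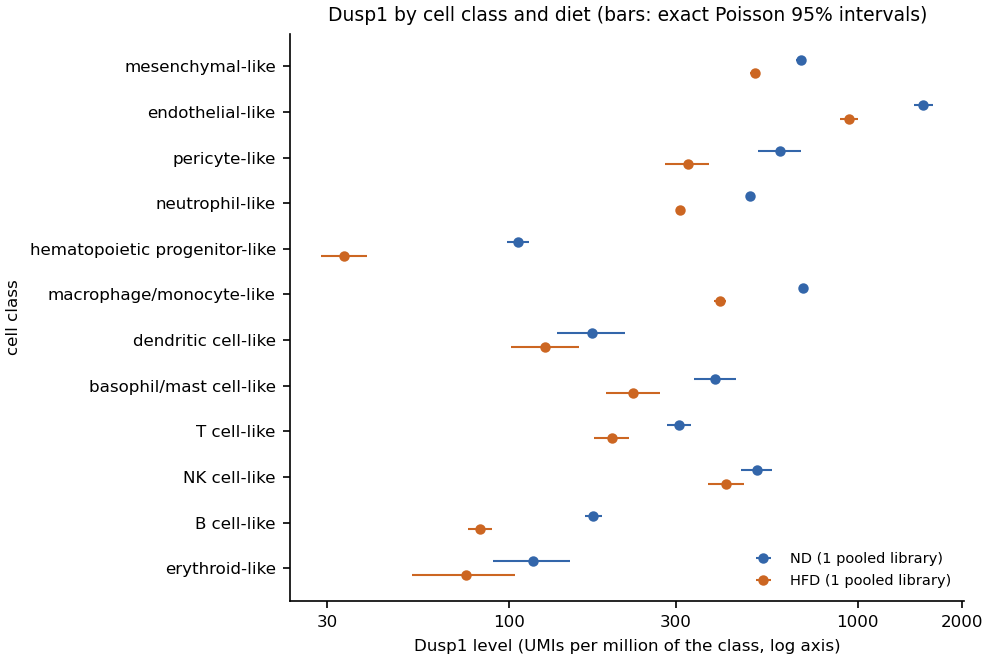
Dusp1 level (x axis, UPM on a log scale) in each of the 12 cell classes, with 1 point for the ND library and 1 for the HFD library; bars are exact Poisson 95% intervals of the counts. The HFD point lies to the left of (lower than) the ND point in all 12 classes, from 1540 against 943 UPM in endothelial-like cells to 106 against 33.6 in hematopoietic progenitor-like cells.

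The direction of Dusp1 also held inside the classes. Of 26 named clusters, 25 had at least 100 UMIs of Dusp1 over both libraries, and it was lower in HFD in 25 of these 25, with the counting interval below 0 in 21. The median log2 ratio over the clusters was -0.62, and they ranged from -1.93 to -0.09. Of 509 genes that reached 100 UMIs in at least 25 clusters, 5 (0.982%) were lower in each such cluster. The clusters differed in size of the ratio. In neutrophil-like cells, Dusp1 stood at 1460 and 1290 UPM in cluster 3 (led by Acod1 and Il1b) and at 176 and 68.7 in cluster 4 (led by the granule genes Ltf and Ngp). In macrophage/monocyte-like cells it was at 258 and 127 UPM in cluster 7 (led by Ms4a6c and F13a1), 793 and 743 in cluster 10 (led by C1qa and C1qb) and 1890 and 1770 in cluster 21.

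For macrophage/monocyte-like cells the class ratio was thus wider than that of clusters 10 and 21. With the clusters given the same weights in both libraries it was -0.28, and without cluster 21 it was -0.39, neither past 1.5-fold. For T cell-like cells, Dusp1 was at 206 and 164 UPM in cluster 13 and at 476 and 353 in cluster 19, and the ratio of the class was -0.33 without cluster 19 against -0.64 with it.

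Within the mesenchymal-like cells, Dusp1 was lower in HFD in the Pi16 fibroblast-like (689 and 471 UPM), tenocyte-like (667 and 545), osteoblast-like (854 and 418) and chondrocyte-like cells (814 and 590). The osteoblast-like cells, marked by Bglap, Ibsp and Sp7, had the widest of these ratios, -1.03 (-1.23 to -0.84). An unnamed subcluster of 38 ND and 33 HFD cells, numbered 3, went the other way, at 541 and 595 UPM (0.14, -0.08 to 0.35). It was led by neutrophil genes (Retnlg, S100a9), and 59.2% of its cells were among the top 5% of doublet scores. The chondrocyte-like cells were few, 13 in ND and 34 in HFD, and 27.7% of them were among these scores.

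The share of cells with a Dusp1 UMI was compared after each cell was thinned to 1000 UMIs, since deeper cells show more genes. Of mesenchymal-like cells, 41.4% (36.6 to 46.4) had one in ND and 33.5% (30.0 to 37.3) in HFD, against 85.0% and 79.4% before thinning. The thinned share was 40.7% and 33.9% in neutrophil-like cells and 13.8% and 7.88% in B cell-like cells. In endothelial-like cells it was 51.7% (42.3 to 61.1) and 50% (43.3 to 56.7), so that a difference in the share was not detectable at this depth, and the thinned ratio of levels was -0.23. As a measure of free RNA, matrix genes of the mesenchymal-like cells (Col1a1, Col3a1, Dcn and others) stood in neutrophil-like cells at 0.441% of their mesenchymal level in ND and 0.578% in HFD, while Dusp1 stood there at 492 and 308 UPM beside 688 and 506 in mesenchymal-like cells.

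The 9 ERK-specific genes did not share one direction. To count a difference, a gene needed at least 100 UMIs over both libraries in a class, and it was called lower or higher where the fold was 1.5 or more. Over the 7 classes with the most kept cells, taken without a fixed limit on cell number, 32 pairs of gene and class passed the minimum. Of these, 17 were lower in HFD and 15 higher, where 45.9% of all pairs of gene and class were lower. Called lower were 3 and called higher 1, beside 2.83% and 1.87% of all pairs. Among the 32 pairs, the counting interval was below 0 in 8, above 0 in 5 and spanned 0 in 19. Of all genes that passed, it was below 0 in 875 and above 0 in 1252 of 8938 in mesenchymal-like cells. The counts were 183 and 275 of 2851 in endothelial-like, 1741 and 674 of 7714 in neutrophil-like and 721 and 1059 of 7807 in macrophage/monocyte-like cells. They were 248 and 400 of 3435 in T cell-like, 729 and 1347 of 8215 in B cell-like and 678 and 756 of 7548 in hematopoietic progenitor-like cells. Of the 9 genes, Dusp5, Dusp6 and Spred2 passed the minimum in 6 of the 7 classes, Spry2 in 5, Spred1 in 4, Spry1 in 2, and Dusp4, Spry4 and Etv5 in 1 each. Dusp1 passed it in 7. NK cell-like cells, with 133 ND and 108 HFD cells, were not among the 7. In them Dusp1 (log2 ratio -0.29) did not reach 1.5-fold. Of the ERK-specific genes Dusp5 (-0.17) and Spry2 (0.02) passed there, both with intervals spanning 0.

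In mesenchymal-like cells 8 of the 9 passed, 4 lower and 4 higher, with a median log2 ratio of -0.02 beside 0.05 for all 8938 genes. None was called lower (2.77% of all genes were) and 1, Spry1, was called higher (3.38% of all genes). In endothelial-like cells 3 passed, and Dusp6 was called lower (3.19% of all genes lower, 3.58% higher), with a median of -0.06 beside 0.03 for all genes. In neutrophil-like cells 4 passed, with none called in either direction (3.88% of all genes lower, 1.04% higher) and a median of 0.18 beside -0.06. In macrophage/monocyte-like cells 4 passed and Dusp6 was called lower (2.75% lower, 1.41% higher), with a median of -0.27 beside 0.04.

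Of 5 genes that passed in hematopoietic progenitor-like cells, Dusp6 was called lower (2.27% of all genes lower, 1.18% higher), and the median was 0.08 beside 0.01. Of 2 in T cell-like cells, none was called (3.14% lower, 2.04% higher). In B cell-like cells all 6 that passed were lower in HFD, as were 3210 of all 8215 genes. None of the 6 reached 1.5-fold (2.26% of all genes lower, 1.42% higher), and their median was -0.18 beside 0.05. Dusp1 was called lower in 6 of these 7 classes, all but the mesenchymal-like cells, and its ratio was below that of every ERK-specific gene that passed in 6 of 7, the exception being macrophage/monocyte-like cells. In mesenchymal-like cells Dusp1 (-0.444), Dusp6 (-0.439) and Dusp5 (-0.414) lay within each other's counting intervals. So did Dusp1 (-0.712) and Dusp6 (-0.662) in endothelial-like cells. In B cell-like and hematopoietic progenitor-like cells the Dusp1 call held in every alternative processing tried, 14 and 12 of them. In the other 4 it was lost in some, in endothelial-like cells in 2 of 12 (thinning to 1000 UMIs and equal weight for each cell), in neutrophil-like cells in 3 of 13 (these and equal cluster weights), in macrophage/monocyte-like cells in 3 of 14 and in T cell-like cells in 4 of 14, with the direction kept throughout. Dusp1 was the only member with 100 UMIs in each of the 7 classes. Of 2017 such genes, 82 (4.07%) were lower in all 7 classes, and Dusp1 was among them.

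**Figure D2:**
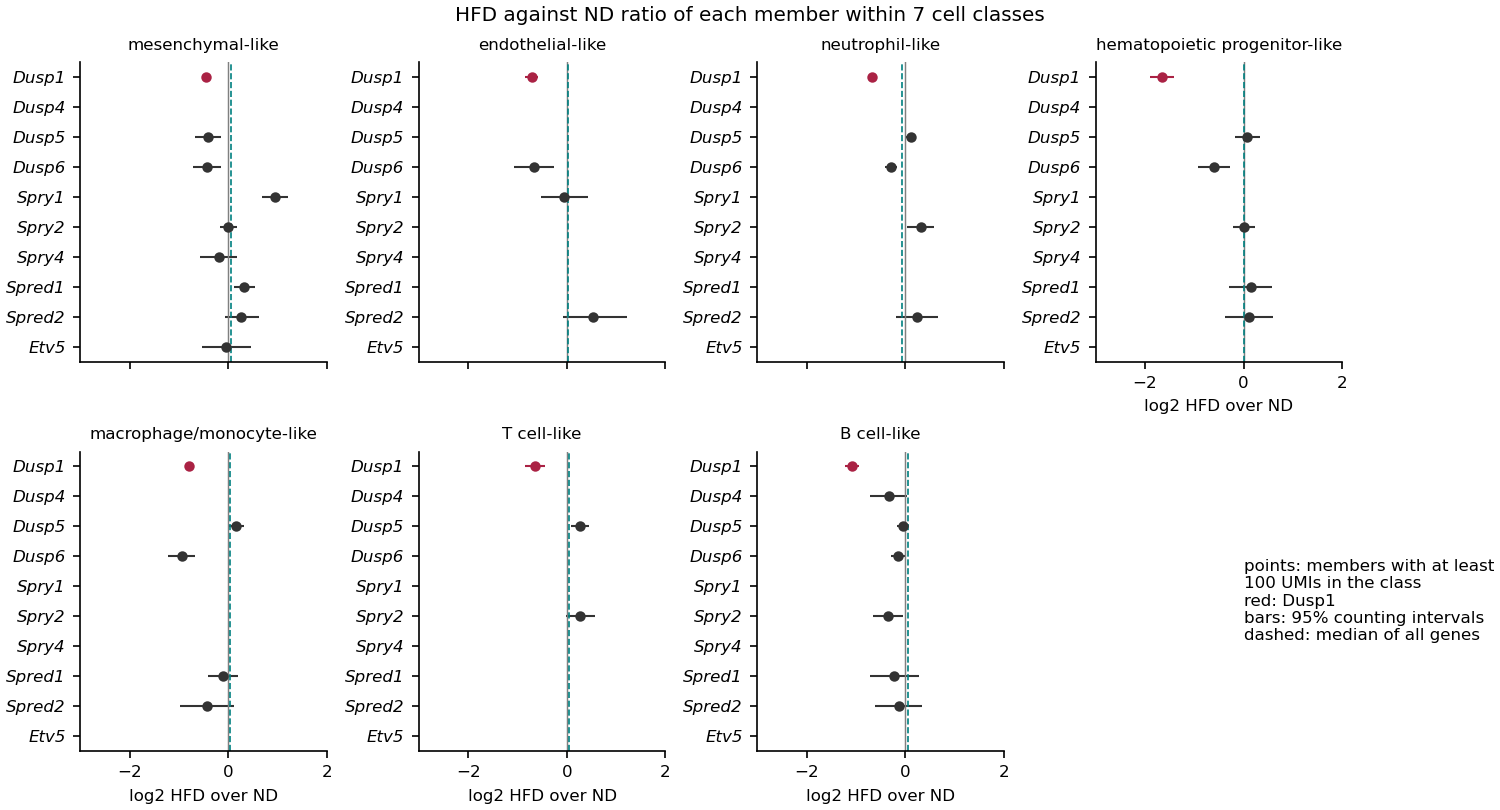
log2 ratio of HFD over ND for each of the 10 genes in the 7 classes, for genes with at least 100 UMIs over both libraries; points are ratios with 0.5 added to each count and bars are 95% counting intervals. Dusp1 lies below 0 in all 7 classes, while the ERK-specific genes lie on both sides, from -0.95 for Dusp6 in macrophage/monocyte-like cells to 0.94 for Spry1 in mesenchymal-like cells.

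Spry1 (chr3:37639947-37644598, plus strand), which encodes an inhibitor of receptor tyrosine kinase signaling, was the 1 member called higher in HFD among the 7 classes. In mesenchymal-like cells it had 153 UMIs in ND and 431 in HFD, or 32.1 and 61.7 UPM, 1.92-fold higher (log2 ratio 0.94, 0.68 to 1.22). Both the Pi16 fibroblast-like cells, a progenitor-rich fibroblast population (42.2 and 90.6 UPM), and the tenocyte-like cells, the cells of tendon and its insertion (25.3 and 57.8), had this difference. In osteoblast-like cells the levels were 16.2 and 31.2 UPM on 8 and 33 UMIs, with an interval of -0.19 to 2.28. Chondrocyte-like cells had 41.6 and 16.2 UPM on 9 and 11 UMIs.

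The share of mesenchymal-like cells with a Spry1 UMI was 1.47% (0.542 to 3.17) in ND and 5.71% (4.08 to 7.76) in HFD at 1000 UMIs, and 22.8% and 27.7% before thinning. The ratio was 0.92 without subcluster 3, 0.96 without the top doublet scores and 0.95 with subclusters at the same weights. It was 0.74 with classes set by marker scores and 2.17 after thinning to 1000 UMIs (14.7 and 70.7 UPM, on 6 ND cells with a UMI). Endothelial-like cells, the other class with 100 UMIs, had 97.9 and 94.1 UPM (log2 ratio -0.06, -0.53 to 0.43). NK cell-like cells had 0 UMIs of Spry1 in either library, which allows up to 4.05 UPM in ND and 4.68 in HFD, and neutrophil-like cells 1.06 and 0.998 UPM, where free RNA alone would give 0.141 and 0.357.

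Spry2 (chr14:105891947-105896819, minus strand) did not follow Spry1 in the mesenchymal-like class as a whole. There it was at 96.8 and 97.0 UPM, with a log2 ratio of 0.00 (-0.17 to 0.18). Within the class it was at 148 and 144 UPM in Pi16 fibroblast-like cells and 45.9 and 62.6 in tenocyte-like cells (0.44, -0.06 to 0.97). Osteoblast-like cells had 24.2 and 47.3 UPM on 12 and 50 UMIs (0.92, 0.04 to 2.01). Chondrocyte-like cells had 204 and 67.8 on 44 and 46 UMIs from 13 and 34 cells (-1.59, -2.21 to -0.96). The highest level of Spry2 was in NK cell-like cells, at 517 and 526 UPM, and there 33.1% of ND and 33.3% of HFD cells had a UMI at 1000 UMIs. Basophil/mast cell-like cells followed (243 and 302 UPM). T cell-like cells had 100 and 121 UPM and pericyte-like cells 110 and 74.6. Hematopoietic progenitor-like cells stood at 54.0 and 54.3 UPM and B cell-like cells at 26.9 and 21.2 (-0.34, -0.65 to -0.04). In macrophage/monocyte-like cells only 25 and 45 UMIs were counted, or 3.74 and 6.74 UPM. In the class where Spry2 was highest, its level was thus nearly equal in both libraries.

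Spry4, which inhibits signaling from receptor tyrosine kinases to ERK, was found mostly in vessel-associated and mesenchymal-like cells. Pericyte-like cells had 116 UPM in ND and 55.0 in HFD (37 and 31 UMIs), endothelial-like cells 37.1 and 29.9, and mesenchymal-like cells 22.6 and 19.8 (log2 ratio -0.20, -0.57 to 0.18). In neutrophil-like cells it stood at 0.187 and 0.235 UPM on 3 and 4 UMIs, next to a free-RNA level of 0.0997 and 0.114. The blood cells thus gave almost no Spry4.

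Spred1 (chr2:117121374-117182279, plus strand), which brings neurofibromin to RAS, was at 56.4 and 70.8 UPM in mesenchymal-like cells (log2 ratio 0.33, 0.11 to 0.55). In osteoblast-like cells it was at 48.5 and 81.3 UPM (0.73, 0.08 to 1.46). Outside the mesenchymal-like cells Spred1 had 47.3 and 44.8 UPM in endothelial-like cells, 27.8 and 25.8 in macrophage/monocyte-like cells and 14.4 and 15.8 in hematopoietic progenitor-like cells. Spred2 (chr11:19924375-20024026, plus strand) was at 49.0 and 72.1 UPM in endothelial-like cells (0.54, -0.07 to 1.22) and at 23.0 and 27.8 in mesenchymal-like cells (0.27, -0.08 to 0.62). Both of these intervals spanned 0.

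**Figure D3:**
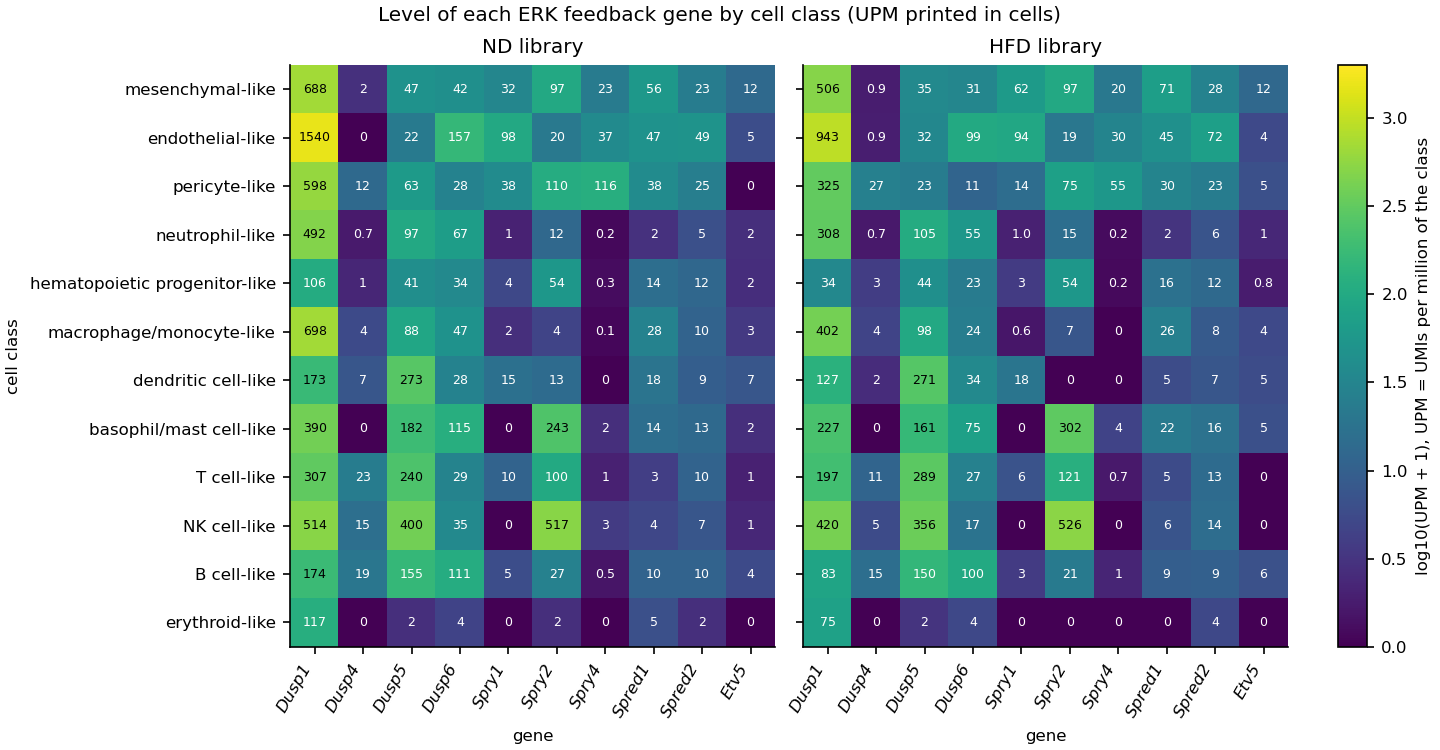
Level of each of the 10 genes (UPM, printed in each cell and shown by color on a log scale) in the 12 cell classes of the ND and HFD libraries. Dusp1 was found in every class, Dusp5 and Spry2 were highest in NK cell-like cells (400 and 517 UPM in ND), Dusp6 in endothelial-like cells in ND (157 UPM), and Spry4 in pericyte-like cells.

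Dusp6 (chr10:99263231-99267489, plus strand), the cytoplasmic ERK phosphatase and a widely used readout of ERK activity, was lower in HFD in each of the 6 classes where it passed the minimum. Its level was 157 UPM in ND and 99.4 in HFD in endothelial-like cells (log2 ratio -0.66, -1.07 to -0.25) and 66.7 and 54.6 in neutrophil-like cells (-0.29, -0.42 to -0.16). B cell-like cells had 111 and 100 UPM (-0.15, -0.29 to -0.01). Hematopoietic progenitor-like cells had 34.3 and 22.7 UPM, where the ratio of -0.60 became 0.11 after thinning to 1000 UMIs. Of 15 clusters with 100 UMIs of Dusp6, 13 were lower in HFD, with the interval below 0 in 7 and above 0 in none. How many other genes were lower in as many classes or clusters was not counted. Over the 7 classes, 45.9% of all pairs of gene and class were lower. At 1000 UMIs, 11.2% (6.10 to 18.4) of ND and 9.29% (5.84 to 13.9) of HFD endothelial-like cells had a Dusp6 UMI, against 35.8% and 23.5% before thinning. The thinned shares of B cell-like cells were 10.9% and 10.6%, within their counting intervals of each other.

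In mesenchymal-like cells Dusp6 was at 42.5 and 31.4 UPM (log2 ratio -0.44, -0.72 to -0.16), but the value depended on a few cells. It was 33.9 and 34.3 UPM in Pi16 fibroblast-like cells, 35.6 and 36.7 in tenocyte-like cells and 28.3 and 29.3 in osteoblast-like cells, all nearly equal between the libraries. It differed in chondrocyte-like cells (111 and 26.5 UPM, 24 and 18 UMIs), in subcluster 3 (61.4 and 13.6 UPM, 47 and 7 UMIs), the one led by neutrophil genes, and in the unnamed subcluster 4 (128 and 8.14 UPM, 6 and 1 UMIs). Without the cells of the top 5% of doublet scores the ratio was 0.06, and without subcluster 3 it was -0.25, and with classes set by marker scores -0.09, whereas it was -0.60 with equal weight for each cell and -1.16 after thinning to 1000 UMIs (44.1 and 19.5 UPM). In macrophage/monocyte-like cells Dusp6 was at 47.2 and 24.4 UPM (-0.95, -1.23 to -0.67). In cluster 10 it was at 38.8 and 39.4 and in cluster 21 at 169 and 147, and the class ratio was -0.18 without cluster 21.

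Dusp5 (chr19:53529109-53542431, plus strand), the nuclear phosphatase specific to ERK, went in both directions. NK cell-like cells had the highest level, at 400 and 356 UPM, followed in ND by dendritic cell-like (273 and 271), T cell-like (240 and 289), basophil/mast cell-like (182 and 161) and B cell-like cells (155 and 150). In neutrophil-like cells it was slightly higher in HFD, at 97.0 and 105 UPM (log2 ratio 0.12, 0.02 to 0.22), and in mesenchymal-like cells lower, at 46.9 and 35.2 (-0.41, -0.68 to -0.15). Thinned to 1000 UMIs, 13.4% (12.1 to 14.9) of ND and 15.5% (14.0 to 17.0) of HFD neutrophil-like cells had a Dusp5 UMI, against 35.9% and 39.6% before thinning. Of 19 clusters with 100 UMIs of Dusp5, 9 were lower and 10 higher. The T cell-like value was 308 and 305 UPM in cluster 13 and 128 and 218 in cluster 19, so that without cluster 19 the class ratio was -0.01.

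In neutrophil-like cells Dusp1 and Dusp5 therefore went apart. Dusp5 was at 145 and 209 UPM in cluster 1 (led by Retnlg and Ccl6), 312 and 407 in cluster 3 and 44.6 and 58.2 in cluster 4, each with the interval above 0, whereas Dusp1 was lower in HFD in all 3, at 951 and 658, 1460 and 1290, and 176 and 68.7. In cluster 16, neutrophil-like cells led by Camp and Ngp, Dusp5 was at 27.8 and 9.82 UPM, the other way.

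**Figure D4:**
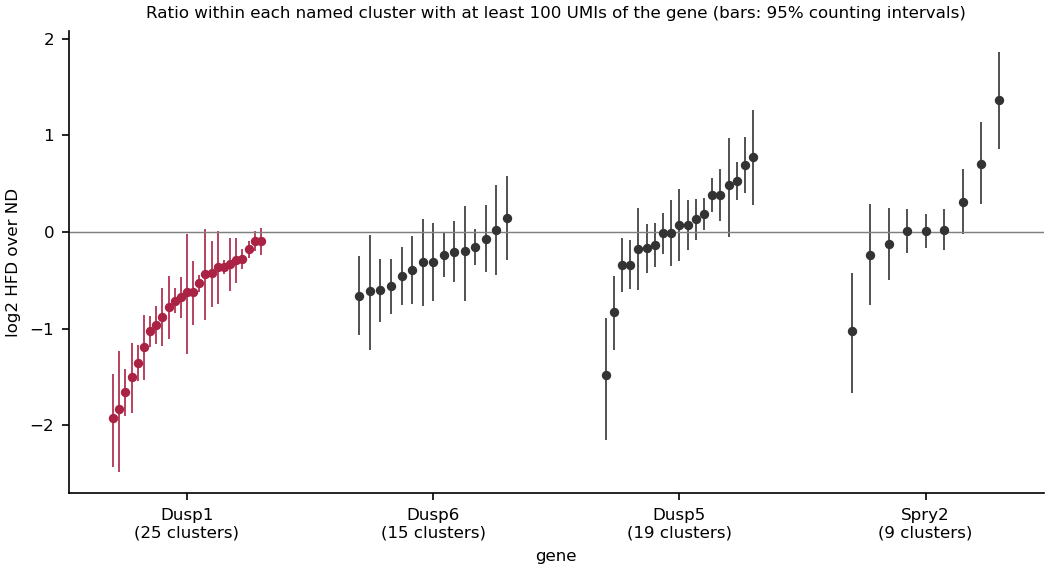
log2 ratio of HFD over ND of Dusp1, Dusp5, Dusp6 and Spry2 in each named cluster where the gene had at least 100 UMIs over both libraries; each point is 1 cluster and bars are 95% counting intervals. Dusp1 lies below 0 in 25 of 25 clusters and Dusp6 in 13 of 15, while Dusp5 lies below 0 in 9 of 19 and Spry2 in 3 of 9.

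Dusp4 and Etv5 were sparse. Dusp4 (chr8:34807297-34819894, plus strand), a nuclear ERK phosphatase, reached 100 UMIs in B cell-like cells alone, with 18.6 and 14.7 UPM (log2 ratio -0.34, -0.71 to 0.03). T cell-like cells had 23.3 and 10.6 UPM on 46 and 16 UMIs, pericyte-like cells 12.5 and 26.6 on 4 and 15 UMIs, and mesenchymal-like cells 1.89 and 0.859. Etv5 (chr16:22381309-22439719, minus strand), which FGF and ERK signaling induces, was at 12.4 and 12.0 UPM in mesenchymal-like cells (-0.04, -0.54 to 0.47) and at 5.07 and 4.4 in endothelial-like cells on 3 and 5 UMIs. A difference was not detectable for Etv5 at this depth.

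The other genes of the pathway were described by lists, which were also chosen with earlier results of these data known. Over all genes, the 7 classes gave 46508 pairs of gene and class, of which 45.9% were lower in HFD, 2.83% called lower and 1.87% called higher. The 18 genes of the RAS-ERK cascade (adaptors, RAS proteins, RAF, MEK and ERK kinases) gave 102 pairs of gene and class over the 7 classes, of which 43 were lower and 59 higher in HFD, with none called lower and 1, Sos1 in B cell-like cells (7.22 and 12.1 UPM), called higher. Their medians lay between -0.05 and 0.08, beside -0.06 to 0.05 for all genes. In mesenchymal-like cells Mapk3, which encodes ERK1, was at 79.0 and 88.1 UPM. Growth factor receptor genes gave 25 pairs in 5 classes, of which 8 were lower and 17 higher. Called lower were 0 and called higher 1 (4%, beside 1.87% of all pairs), in mesenchymal-like cells. The ratios of the 9 receptor genes that passed there ran from -0.55 to 0.70, with 2 intervals below 0 and 2 above 0. Among them, Fgfr1 was at 197 and 213 UPM and Pdgfra at 255 and 257.

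Other outputs of ERK gave 25 pairs over the 7 classes, of which 17 (68%, beside 45.9% of all pairs) were lower in HFD and 8 higher. Of the 25, 4 (16%, beside 2.83% of all pairs) were called lower and 0 called higher. They were mixed in mesenchymal-like cells, where 7 of 11 listed genes passed, 3 lower and 4 higher, with a median of 0.37. Etv1, another ETS factor, was at 29.7 and 38.5 UPM and Ccnd1, the cyclin D1 gene, at 94.1 and 79.1. In B cell-like cells 3 passed, with a median of -0.80. In hematopoietic progenitor-like cells 4 of 4 were lower (median -0.43), and in macrophage/monocyte-like cells 4 of 5 (-0.20). Other phosphatases of the DUSP family, 6 listed genes, gave 13 pairs in the 3 classes where at least 3 of them passed. Of these, 10 were lower and 3 higher, and 4 were called lower. Over the 7 classes, 45.9% of all pairs were lower and 2.83% called lower. Among the 6, Dusp2, an early-response gene of immune cells, was at 991 and 617 UPM in B cell-like cells. It was at 203 and 76.5 in endothelial-like cells and 96.2 and 60.4 in macrophage/monocyte-like cells. It was at 828 and 791 UPM in T cell-like cells.

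Immediate-early genes were lower alongside Dusp1. These are genes that any sudden stimulus switches on within minutes, cell dissociation included. Over the 7 classes they gave 116 pairs, of which 111 (95.7%, beside 45.9% of all pairs) were lower in HFD. Of the 116, 56 (48.3%, beside 2.83% of all pairs) were called lower, and medians ran from -0.94 to -0.32. Fos was at 6670 and 5330 UPM in mesenchymal-like and at 5710 and 3740 in endothelial-like cells, and Jun was at 896 and 216 in neutrophil-like cells. Heat-shock genes were lower in 47 of 49 pairs (95.9%) and called lower in 39 (79.6%), beside the same shares of all pairs. Their medians ran from -2.05 to -0.54, and Hspa1a was at 2420 and 884 UPM in endothelial-like cells. Of 14 immediate-early genes with 100 UMIs in each class, 12 were lower in all 7, and of 7 heat-shock genes 6 were, beside 0 of 6 genes of the RAS-ERK cascade. Of all 2017 genes with 100 UMIs in each class, 82 (4.07%) were lower in all 7.

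Part of these counts rested on the clusters that stood apart. Clusters 19, 20 and 21 were left out as an alternative chosen after seeing the data. Immediate-early genes were then lower in 105 of 115 pairs (91.3%) and called lower in 48 (41.7%). Heat-shock genes were lower in 44 of 48 (91.7%) and called lower in 32 (66.7%). Of all pairs in this setting, 47.9% were lower and 2.81% called lower. In T cell-like cells 9 of 15 immediate-early and 4 of 6 heat-shock genes were then lower, beside 1280 of all 2636 genes. The medians of the 2 lists there were -0.11 and -0.25, beside 0.01 for all genes. Hspa1a there was at 2260 and 985 UPM with cluster 19 and at 62.3 and 117 without it, higher in HFD, while Dusp1 was still lower (206 and 164). In macrophage/monocyte-like cells Hspa1a was at 2120 and 726 UPM with cluster 21 and at 556 and 302 without it.

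Genes induced by glucocorticoids, which also induce Dusp1, were lower in 38 of 49 pairs (77.6%, beside 45.9% of all pairs). They were called lower in 15 (30.6%, beside 2.83% of all pairs). Their medians ran from -0.65 in mesenchymal-like cells, where 9 of 9 were lower (3728 of all 8938 genes were), to 0.21 in endothelial-like cells. Tsc22d3 (GILZ) was at 380 and 278 UPM in mesenchymal-like and at 124 and 49.4 in neutrophil-like cells. Median mitochondrial shares in the 7 classes lay between 0.171% and 2.06% and differed by at most 0.17 percentage points between the libraries. The medians of the immediate-early and heat-shock genes were below 0 in each of the 7 classes, as Dusp1 was. Of the other classes, pericyte-like, dendritic cell-like and basophil/mast cell-like cells had both medians below 0. In NK cell-like cells the immediate-early median was -0.28 and the heat-shock median 0.01, with Dusp1 at -0.29. In erythroid-like cells they were 0.09 and 0.82, with Dusp1 at -0.62. The part of these lists in the difference of Dusp1 was not tested. With 1 library per diet, a difference between the diets and a difference between the 2 preparations cannot be told apart.

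**Figure D5:**
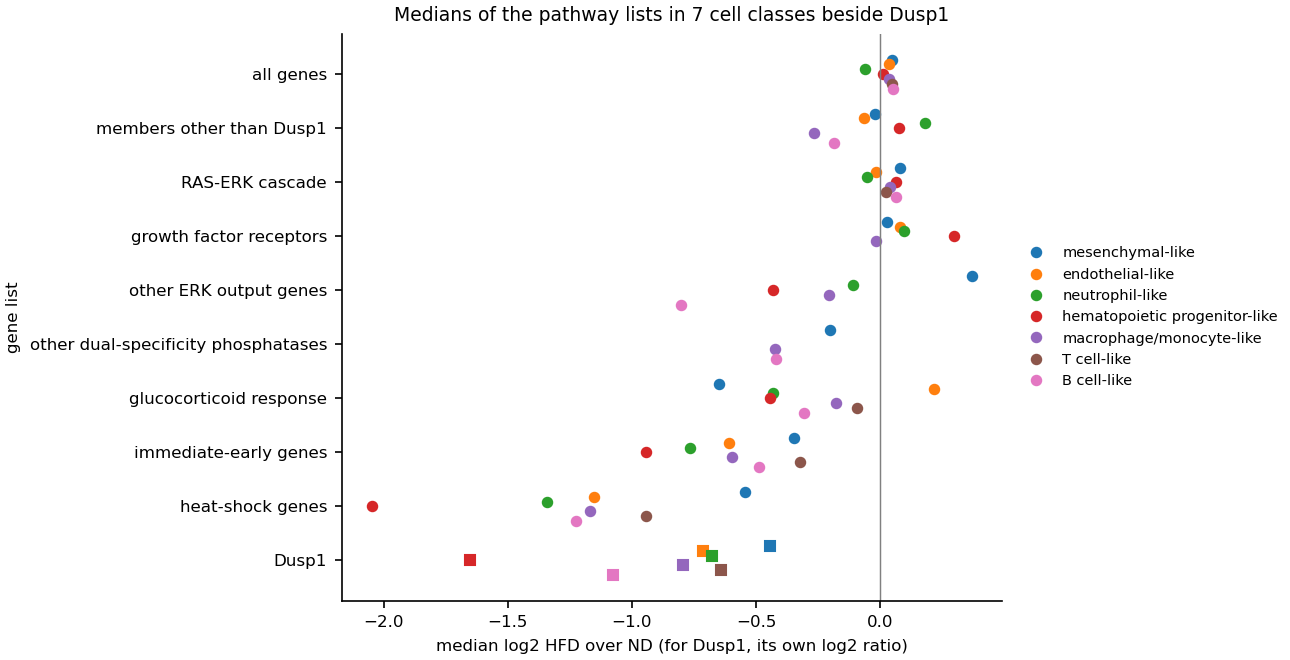
Median of the log2 diet ratios (HFD over ND) for each gene list in the 7 classes, for lists with at least 3 genes of 100 UMIs, beside Dusp1 (its own ratio) and all genes. Dusp1, the immediate-early genes and the heat-shock genes lie below 0 in each class, while the RAS-ERK cascade stays between -0.05 and 0.08.

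Across classes the genes differed in how closely their levels followed Dusp1. Over the 8 classes with at least 50 cells in each library, which share their library and differ in depth, the Pearson correlation of log2(UPM + 10) of Dusp1 was 0.87 in ND and 0.83 in HFD with Fos, and 0.88 and 0.84 with Zfp36, whose protein destabilizes cytokine mRNAs. It was 0.69 and 0.68 with Egr1 and 0.65 and 0.59 with Jun, early-response genes as well. Of the ERK-specific genes, Spry4 (0.70 and 0.60) lay slightly above Jun. Spry1 (0.58 and 0.55), Spred2 (0.57 and 0.55) and Spred1 (0.50 and 0.42) lay below Jun, and Etv5 had 0.36 and 0.31 and Dusp4 -0.37 and -0.49. With Dusp6 the Pearson correlation was 0.38 and 0.12, with Dusp5 -0.26 and -0.10 and with Spry2 -0.14 and 0.02. Rank (Spearman) correlations with Dusp1 were 0.36 and 0.32 for Spry4 and 0.24 and 0.26 for Spry1. They were 0.38 and 0.62 for Spred2, 0.52 and 0.50 for Spred1, 0.69 and 0.74 for Jun and 0.91 and 0.93 for Fos. Of 7450 genes compared, the 5 most like Dusp1 in ND were Mafk (0.956, and 0.865 in HFD), Midn (0.951 and 0.913), Rbms1 (0.947 and 0.923), Usp4 (0.945 and 0.727) and Ctdsp1 (0.943 and 0.657). Those most like Dusp6 were Nsrp1 (0.949 and 0.815), Cyren (0.939 and 0.852), Jrkl (0.911 and 0.221), BC031181 (0.910 and 0.507) and Plk2 (0.908 and 0.713). These genes were picked as the highest of many over 8 points, and the HFD value of each stands beside it for that reason.

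The order of these 8 classes differed between the genes as well. For Dusp1 in ND it ran from endothelial-like through macrophage/monocyte-like and mesenchymal-like cells, which did not differ beyond their counting intervals, to NK cell-like and neutrophil-like, T cell-like, B cell-like and hematopoietic progenitor-like cells, with 14.6-fold between the first and the last. In HFD the fold was 28.1. For Dusp5 in ND the order was led by NK cell-like, T cell-like and B cell-like cells and closed by endothelial-like cells (21.9 UPM), where Dusp1 was highest.

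From cell to cell, over the 408 ND and 669 HFD mesenchymal-like cells, Dusp1 correlated with Fos at 0.51 and 0.38 and with Zfp36 at 0.45 and 0.29. Its correlation with Dusp6 was 0.12 and 0.09, and with Spry2 -0.01 and 0.00. In macrophage/monocyte-like cells (531 and 534) the value with Fos was 0.69 and 0.57 and with Dusp6 0.39 and 0.30. Counts per cell were sparse for the ERK-specific genes, and these values are a description.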

How the data were processed

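Transcripts of single periosteal cells were counted in droplets (10x Genomics Chromium) for the 2 diets, ND and HFD. The authors made the deposited counts, whole numbers of UMIs per gene and barcode without normalization, with Cell Ranger 6.0.1, and the submitters' processing notes name mm10. Which annotation was used is not given in the sources read. The labels gave the diet of each sample. Each diet has 1 pooled matrix and no map from cells to mice, so no test was made. The 10 members, the gene lists and the markers were chosen with earlier results of these data known.

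Barcodes with more than 500 and fewer than 8000 genes and under 20% mitochondrial UMIs were kept. Both libraries were clustered together with Seurat 5.3.0 (SCTransform with regression of cell cycle scores, 30 principal components, Louvain resolution 0.5, and 0.2 for mesenchymal-like cells), and neither the members nor the immediate-early genes entered the clustering. Each cluster was named after the class with the highest marker levels. Clusters stayed unnamed with fewer than 3 markers detected (20 UMIs and 2-fold over the median cluster, after adding 10 UPM), a very low median depth, or most cells among the top doublet scores. The clusters had been seen when these limits were set. The 2 unnamed ones held 241 ND and 182 HFD cells. Doublets were kept. The automatic threshold of Scrublet (scanpy 1.11.5) called 0.149% of ND and 0.370% of HFD cells and was taken not to have worked, so the top 5% of scores was used as an alternative.

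UMIs were summed per class and library and divided by all UMIs of the class, with exact Poisson 95% intervals. Ratios had 0.5 added to each count, with intervals from the exact binomial share of the HFD counts, and shares had exact Clopper-Pearson intervals. Where no UMI was counted, up to 3 counts were allowed for. UMIs count molecules at the 3′ end, and no order was read between the levels of different genes. The ratio and its interval were tried on simulated counts drawn with counting error alone. This check could not show how they behave under variation between cells, mice or preparations. Named genes were the members, listed genes as examples of their list, markers, and the 5 genes most like Dusp1 and Dusp6 over classes (among genes with at least 500 ND UMIs). Gene positions are from GENCODE M21 (GRCm38). Clusterings, class calls, depth, filters, scaling and weights were varied as alternatives.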

Additional observations from a re-analysis of the deposited data

Results flagged for a closer look

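For 2 genes the diet ratio had opposite signs in different classes, with counting intervals on opposite sides of 0. The log2 diet ratio (HFD over ND) of Dusp5 was -0.41 in mesenchymal-like cells, 0.12 in neutrophil-like cells and 0.27 in T cell-like cells. That of Spry2 was 0.31 in neutrophil-like cells and -0.34 in B cell-like cells. With 1 library per diet, these differences between classes were not tested. The T cell-like value of Dusp5 and the neutrophil-like value of Spry2 changed sign under alternatives given in the next part.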

How the results depend on the processing

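Dusp1 was lower in HFD in 94 of 94 alternative values, 68 of them close to the reported log2 ratio and 26 moved. Its ratio with classes set by marker scores was -0.535 in mesenchymal-like, -0.912 in neutrophil-like, -0.928 in macrophage/monocyte-like and -1.235 in hematopoietic progenitor-like cells. With cells thinned to 1000 UMIs it was -0.225 in endothelial-like, -0.467 in neutrophil-like, -0.542 in macrophage/monocyte-like, -0.965 in T cell-like and -1.082 in progenitor-like cells. With equal weight for each cell it was -0.499 in endothelial-like, -0.446 in neutrophil-like and -0.668 in macrophage/monocyte-like cells. Neutrophil-like cells gave -0.918 with at least 1000 genes and under 10% mitochondrial UMIs, and -0.615 when centred on the median of all genes. With the same cluster weights in both libraries it was -0.462 in neutrophil-like, -0.277 in macrophage/monocyte-like, -0.379 in T cell-like and -0.837 in B cell-like cells. These weights, the removal of single clusters and the removal of the top 5% of doublet scores were chosen after seeing the data. Without those doublet scores it was -0.843 in endothelial-like and -0.897 in macrophage/monocyte-like cells. It was -0.522 without mesenchymal subcluster 3, -0.392 without macrophage/monocyte cluster 21 and -0.334 without T cell cluster 19. Resolution 0.25 gave -0.813 in B cell-like and -1.282 in progenitor-like cells, and resolution 1 gave -2.227 in the latter.

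Of the 436 alternative ratios of the other 9 genes, 410 lay inside the counting interval of the reported ratio and 21 moved outside it. The other 5 were counted as changes of sign, which required a reported ratio of 1.5-fold or more or an interval excluding 0. These were Dusp6 in mesenchymal-like cells without the top doublet scores (0.057), Dusp6 in progenitor-like cells after thinning (0.107), Spry2 in neutrophil-like cells after thinning (-0.387) and with equal weights (-0.180), and Dusp5 in T cell-like cells without cluster 19 (-0.013). Ratios outside that rule changed sign as well. Examples are Spry2 in T cell-like cells without cluster 19 (-0.125) and, after thinning, Spred1 (0.428) and Spred2 (0.158) in macrophage/monocyte-like cells. The median of the ERK-specific genes moved in 3 of 99 alternatives, to -0.102 in neutrophil-like cells with equal weights, -0.069 in T cell-like cells without cluster 19 and -0.447 in progenitor-like cells at resolution 1. In endothelial-like cells it ranged from -0.463 to 0.346 without being counted as moved. The cause was not tested. A minimum of 20 UMIs in place of 100 moved all 14 shares of genes past 1.5-fold. No paired analysis was possible because each diet has 1 pooled library with no map from cells to mice. Depth limited Dusp4, Spry4 and Etv5 in most classes.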

Other observations

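The unnamed cluster 11, of 205 ND and 163 HFD cells with few UMIs per cell, had Igha, the constant region gene of IgA, among its leading genes. Here Dusp1 was higher in HFD, at 426 UPM in ND and 562 in HFD (log2 ratio 0.40, 0.11 to 0.70), unlike in the named clusters with at least 100 UMIs. Spry1 was at 27.1 and 132 UPM on 11 and 51 UMIs (2.23, 1.32 to 3.37). Dusp5 was at 121 and 106 UPM, Dusp6 at 76.3 and 64.5 and Spry2 at 145 and 111. The unnamed cluster 27, whose cells were all among the top doublet scores, had Dusp1 at 517 and 548 UPM on 141 and 69 UMIs.

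In T cell-like cluster 19, where Hspa1a was high in both libraries, Spry2 was at 97.7 UPM in ND and 252 in HFD (1.37, 0.87 to 1.87), while in T cell-like cluster 13 it was at 102 and 93.5 (-0.13, -0.50 to 0.25). The difference between these clusters was not tested.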
